A study of Rattus norvegicus with 6 samples.

Results

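Ribosome assembly takes place mainly in the nucleolus and is carried out by a large set of dedicated proteins that are not part of the finished ribosome. The genes described here are 60 such assembly factors, comprising the UTP, NOP, RRP, WDR, IMP, NOC and DDX proteins named below, the core proteins of the small nucleolar ribonucleoproteins and the main structural proteins of the nucleolus. They were taken by gene symbol, as all probe sets annotated with 1 of these symbols. The list was proposed with the change after tamoxifen in these same arrays in view, so its changes are given as a description, without a p-value, and support nothing on their own. Of the 60, 59 were measured, by 83 probe sets, among 14217 genes and 31042 probe sets in all. Npm1, which encodes the nucleolar chaperone nucleophosmin, shares its probe sets with a pseudogene in the annotation and was not named.

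The arrays measured total RNA of primary rat Schwann cells, the myelinating glia of peripheral nerve, taken from sciatic nerve and grown in culture. All cells carried an inducible RafER allele, in which the Raf kinase is joined to an estrogen receptor domain that tamoxifen binds. After 24 h in minimal medium the cells received the ethanol vehicle or tamoxifen for 24 h in 3 independent experiments, which gave 3 arrays per group. With no array of RafER-free cells used here, what tamoxifen itself does and what Raf does cannot be told apart. The sample source labels speak of treated rats, whereas the design text, followed here, places the treatment in culture.

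As background, RNA polymerase I makes 1 long precursor that holds the 18S, 5.8S and 28S ribosomal RNAs. Small nucleolar ribonucleoproteins modify it: box C/D particles add methyl groups to riboses, and box H/ACA particles turn uridines into pseudouridines. The early small-subunit particle, also called the small-subunit processome, forms on the 5' end of the precursor around the U3 small nucleolar RNA, and the large subunit is built on the remainder. The transcription factor Myc is known to induce many genes of this process, through the E-box, and growing cells generally raise it. ETS factors are among the transcription factors that ERK, the kinase at the end of the Raf pathway, phosphorylates.

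Values are log2 expression values from RMA, so a difference of 1 means a doubling, and levels of different probe sets are not compared. A gene is described by its probe set of highest mean level, and its values are listed in the order of experiments 1, 2 and 3. "Higher" and "lower" calls refer to an adjusted p of 0.05 in limma, fitted over all probe sets with Benjamini-Hochberg adjustment. The p-values of genes outside the list set a difference against the spread between these 3 experiments. RMA compresses low values, and the file holds no detection calls.

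The arrays of a group correlated at 0.984 to 0.995, and those of different groups at 0.934 to 0.966. The vehicle array of experiment 1 stood apart in RNA quality: over 3 control transcripts, 3' probe sets read 0.84 log2 units above 5' ones, where the other arrays had 0.16 to 0.27. The Schwann cell marker S100b read 13.14, 13.18 and 13.02 in vehicle and 12.62, 12.61 and 11.83 after tamoxifen, and Sox10 read 12.41, 11.09 and 11.26 and then 10.91, 10.59 and 10.54. The mean log2 level of 9 Schwann cell markers was 10.63 to 11.02 on vehicle arrays and 9.79 to 9.99 on tamoxifen arrays, with 4 lower after tamoxifen, and 0 higher in limma (0 also at an unadjusted p under 0.05). The 4 were Pmp22 (-2.18 ± 0.33), Mbp (-1.96 ± 0.29), Ngfr (-1.53 ± 0.32) and S100b (-0.76 ± 0.22). Ngfr did not pass once tamoxifen array 2 was removed, and S100b passed only without tamoxifen array 3 when arrays were left out in turn. In limma 0 of 8 macrophage, 0 of 6 endothelial and 0 of 6 muscle or pericyte markers were called, and 2, 0 and 1 were higher at an unadjusted p under 0.05. Of 10 fibroblast markers, whose mean level was 6.90 to 7.11 in vehicle and 6.82 to 6.93 after tamoxifen, 3 were higher and 3 lower. The higher ones were Fbln1 (1.61 ± 0.14), Pdgfra (0.52 ± 0.11) and Pi16 (0.37 ± 0.10), and the lower ones Col3a1 (-2.38 ± 0.53), Col1a1 (-1.23 ± 0.18) and Col1a2 (-0.46 ± 0.13). Removing tamoxifen array 2 ended the calls of Pdgfra and Col3a1, removing any 1 array that of Pi16, and removing any 1 array but vehicle array 1 that of Col1a2. With the experiment as a block Pi16 and Col1a2 did not pass, whereas Sox10 (-0.90 ± 0.34), not past otherwise, did. The group means of Dcn and Lum lay at 3.43 to 4.25. The mean level of 16 genes of S phase and mitosis was 7.13 to 7.19 in vehicle and 8.76 to 9.71 after tamoxifen, and all 16 were higher. The part of dividing cells in the changes below was not tested, and in bulk RNA a change in cell makeup and a change in RNA per cell cannot be told apart.

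The promoters of these genes are shown before the values because many hold sequence motifs that the choice of genes did not use. Windows of 300 bases, from 250 before to 50 after the annotated start, were taken from RefSeq (build GRCr8) and held 55 of the 60 members. The E-box CACGTG, which reads the same on both strands, was in 18 of the 55 windows (32.7%), against 8.94% of the 11701 windows of genes on the array and 6.65% of all 27457. The ETS motif CCGGAAGT, searched on both strands, was in 22 (40%), against 6.82% and 4.01%. Both motifs were in 8 windows (14.5%, against 0.701% of array genes), with 0 overlaps between matches of the 2 motifs. Below are the stretches from 100 bases before to 50 after the start for 6 members that hold both and had differences above 1, for Nhp2, which had the largest difference, and for Surf6, which was lower. The other members that hold both, Dkc1 (0.67) and Ltv1 (0.35), did not pass and are not shown. Capitals mark the E-box and the ETS motif on either strand.
Utp4: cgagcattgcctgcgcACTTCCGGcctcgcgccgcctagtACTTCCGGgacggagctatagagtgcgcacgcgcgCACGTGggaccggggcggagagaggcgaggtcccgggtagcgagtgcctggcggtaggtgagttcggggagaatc
Bysl: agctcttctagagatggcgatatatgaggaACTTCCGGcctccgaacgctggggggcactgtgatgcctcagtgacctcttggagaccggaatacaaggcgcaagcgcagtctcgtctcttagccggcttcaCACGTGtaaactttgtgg
Tsr1: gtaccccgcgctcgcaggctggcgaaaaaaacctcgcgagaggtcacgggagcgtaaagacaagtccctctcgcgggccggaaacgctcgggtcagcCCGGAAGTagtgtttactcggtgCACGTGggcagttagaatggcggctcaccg
Fbl: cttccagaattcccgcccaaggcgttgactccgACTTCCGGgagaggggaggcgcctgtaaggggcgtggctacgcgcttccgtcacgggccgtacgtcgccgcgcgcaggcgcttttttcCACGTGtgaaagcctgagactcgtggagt
Rrp15: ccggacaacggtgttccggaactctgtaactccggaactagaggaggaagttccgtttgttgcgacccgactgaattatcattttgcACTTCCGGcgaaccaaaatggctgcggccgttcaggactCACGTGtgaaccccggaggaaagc
Ebna1bp2: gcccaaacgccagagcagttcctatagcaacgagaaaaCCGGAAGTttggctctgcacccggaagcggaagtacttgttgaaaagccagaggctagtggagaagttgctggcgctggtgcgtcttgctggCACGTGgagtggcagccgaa
Nhp2: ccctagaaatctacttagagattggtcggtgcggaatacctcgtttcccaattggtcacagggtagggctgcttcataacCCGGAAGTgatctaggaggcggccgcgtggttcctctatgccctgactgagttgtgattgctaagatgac
Surf6: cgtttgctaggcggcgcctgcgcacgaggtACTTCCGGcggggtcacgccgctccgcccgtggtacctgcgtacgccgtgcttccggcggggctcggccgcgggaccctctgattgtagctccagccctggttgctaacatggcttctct
These stretches lie at chr19:51702141-51702290 (+) for Utp4, chr9:20880241-20880390 (+) for Bysl, chr10:60258690-60258839 (+) for Tsr1 and chr1:92597307-92597456 (+) for Fbl, with the strand in brackets. Those of Rrp15, Ebna1bp2, Nhp2 and Surf6 lie at chr13:100830763-100830912 (-), chr5:137433434-137433583 (+), chr10:36377920-36378069 (+) and chr3:30630258-30630407 (-).

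In these stretches the E-box often lay just downstream of the start. Counting the start as 1 and bases before it as negative, the E-box of Fbl began at 22, that of Tsr1 at 21, that of Rrp15 at 27, that of Ebna1bp2 at 31 and that of Bysl at 33. In Utp4 it began at -25. The ETS motif began at -67 in Fbl, -62 in Ebna1bp2, -70 in Bysl and also -70 in Surf6, and at -3 in Tsr1. It began at -13 in Rrp15, at -20 in Nhp2, and at -84 and -60 in Utp4. Over all members, 10 of 19 E-boxes lay after the start, against 5 of 26 ETS matches. Positions were not counted for array genes, so these counts do not set the members apart.

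Other motifs did not follow this pattern. The AP-1 motif TGANTCA was in 0 of 55 member windows (5.43% of array genes), CCAAT in 13 (23.6%, against 37.3%) and TATAAA in 4 (7.27%, against 8.46%). Median GC content was 56.7% in member windows and 60% in those of array genes. The median number of C bases followed by G was 22 in member windows, 19 in those of array genes and 7 in all 27457. Both the E-box and the ETS motif contain CG. Among 1657 windows of array genes that were higher after tamoxifen, 13.6% held the E-box and 9.6% the ETS motif. The 109 windows of other ribosome assembly genes, listed by function below, held the E-box in 24.8% and the ETS motif in 22.9%.

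**Figure D1:**
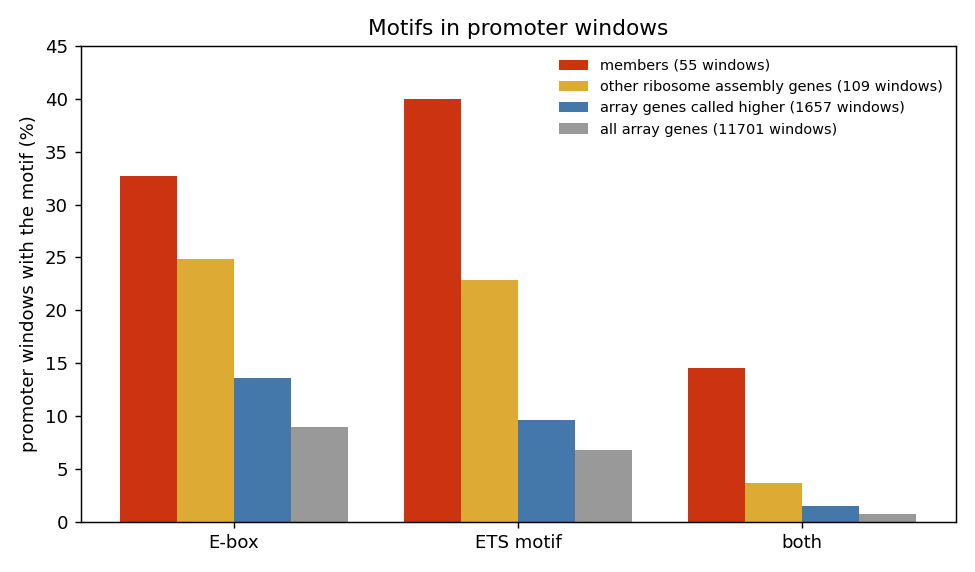
Bars give the percentage of promoter windows that hold the E-box, the ETS motif or both, for members (55 windows), other ribosome assembly genes (109), array genes called higher (1657) and all array genes (11701). The member bars stand at 32.7%, 40% and 14.5%, against 8.94%, 6.82% and 0.701% for all array genes.

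The changes of members with and without these motifs overlapped, and no test was made. The median log2 difference was 1.40 for the 8 with both, 1.10 for 10 with the E-box only, 1.04 for 14 with the ETS motif only and 0.90 for 22 with neither. Wdr12, at 1.99, held neither motif, and Utp20, at -0.52, held an E-box. A match is a description of letters and not a site of binding, and binding was not measured here.

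After 24 h of tamoxifen, transcripts of most members stood higher. By their brightest probe sets 51 of 59 members (86.4%) were called higher and 1 (Surf6) lower, where 13.9% of all genes were called higher and 17.3% lower. The median log2 difference was 1.02, with quartiles of 0.68 and 1.48, against a median of 0.01 over all genes. It was above 0 in 56 members, against 51.7% of all genes. The change exceeded 1 log2 unit with a call in 31 members, against 5.72% of all genes. Differences ran from -0.79 for Surf6 to 2.06 for Nhp2, a 4.17-fold rise. For 56 of 59 members the lowest tamoxifen value was above the highest vehicle value, where 23.7% of all genes showed this, and for 1 the reverse held, where 25.4% of all genes did.

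**Figure D2:**
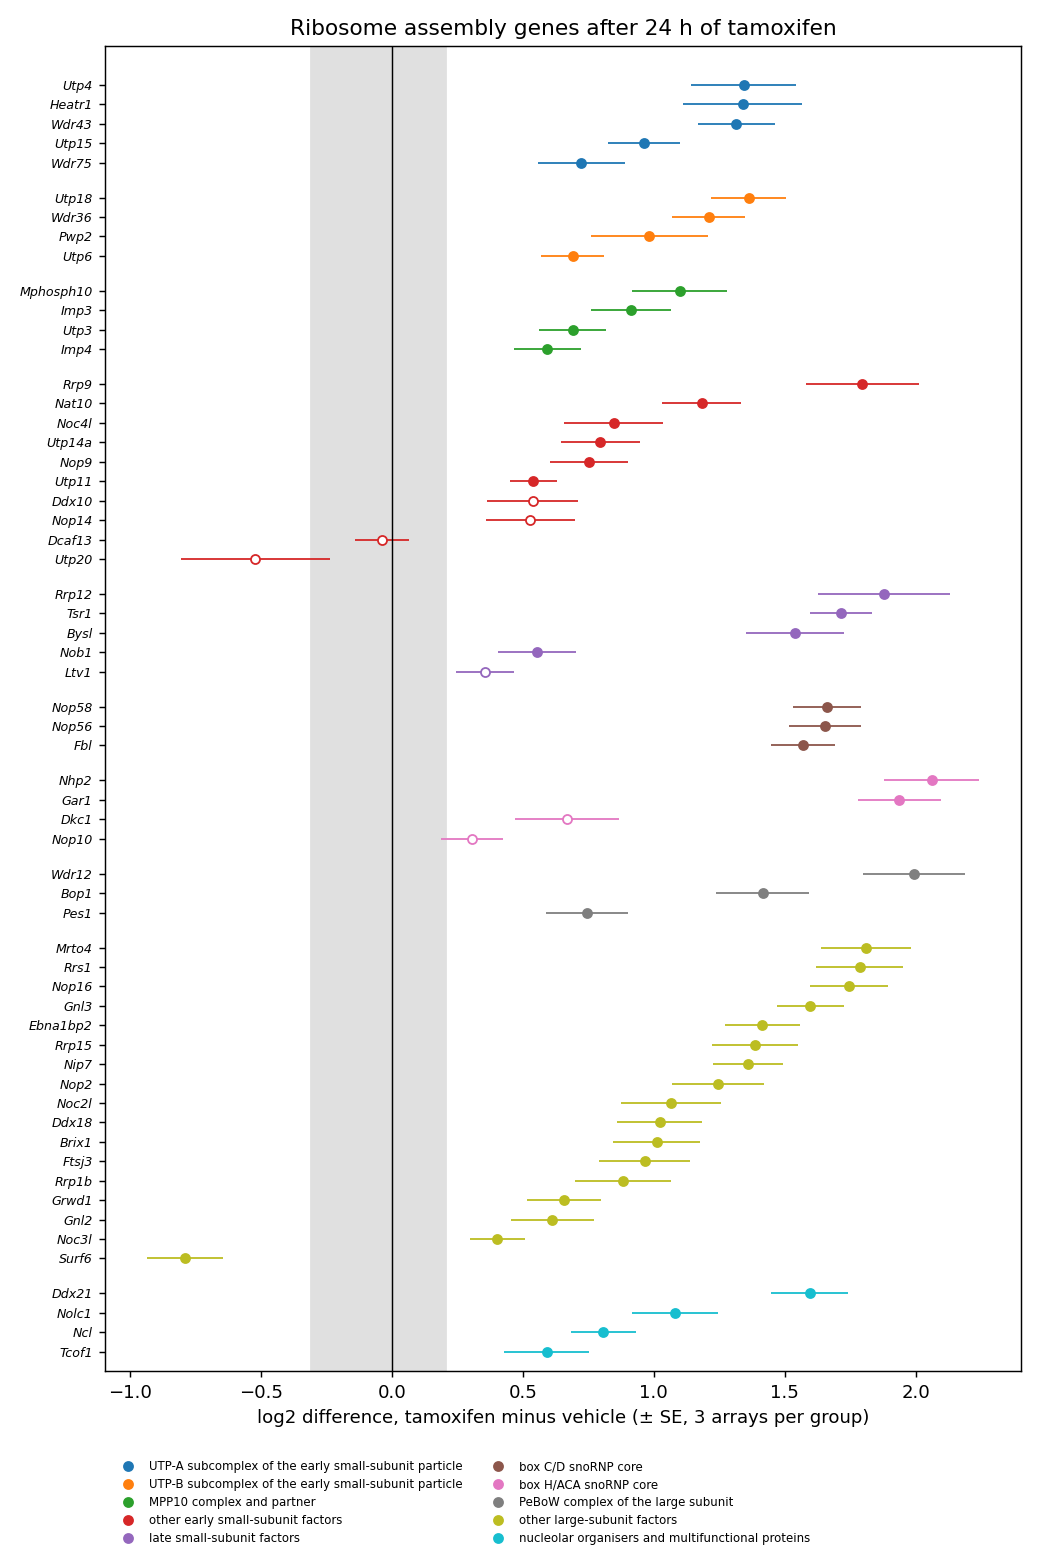
Each point is the log2 difference, tamoxifen minus vehicle, of 1 member by its brightest probe set, with its SE (3 arrays per group), grouped and coloured by role. Filled points passed an adjusted p of 0.05 and open points did not; the grey band spans the middle quartiles of all 14217 genes, from -0.31 to 0.21, and only Dcaf13 has its point inside it.

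The 7 members that did not pass were Utp20, Dcaf13, Nop14, Ddx10, Ltv1, Dkc1 and Nop10. In 5 of them, all but Utp20 and Dcaf13, the 3 tamoxifen values were still above the 3 vehicle values. All 56 members with a difference above 0 were above 0 in each of the 3 experiments. Without the vehicle array of experiment 1, 47 members were called higher, against 13.5% of all genes, and the median was 1.03. Of these 47, 46 were also called with all arrays.

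The early small-subunit particle starts from the UTP-A subcomplex, which binds the precursor during its transcription, and all 5 of its measured members were higher (median 1.31). Utp4, a WD-repeat protein, read 9.46, 9.61 and 9.68 on the vehicle arrays and 10.62, 10.78 and 11.38 on the tamoxifen arrays, a difference of 1.34 ± 0.20 (SE, n = 3 arrays per group, as in all such values below). Heatr1, the large scaffold of this subcomplex, read 6.85, 6.56 and 6.69 in vehicle and 7.74, 7.81 and 8.57 after tamoxifen (1.34 ± 0.23). In both genes the array of experiment 3 was the highest of the tamoxifen group, and the groups lay far apart. Wdr43 (1.31 ± 0.15) and Utp15 (0.96 ± 0.14) lay between these and Wdr75, which had the smallest difference. Wdr75 went from 8.55, 8.18 and 8.14 to 8.76, 9.02 and 9.25 (0.72 ± 0.17). Its groups did not overlap, but it did not pass once array 2 or 3 of either group was removed, with differences of 0.60 to 0.85 when 1 array was left out.

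UTP-B, which joins next, was higher in its 4 members (median 1.10). Utp18 read 4.99, 5.06 and 4.94 in vehicle and 6.15, 6.27 and 6.66 after tamoxifen (1.36 ± 0.14), at a low level. Wdr36 went from 9.20, 9.43 and 9.34 to 10.39, 10.40 and 10.81 (1.21 ± 0.14), and its other probe sets gave 1.07 and 0.98. The 3 probe sets of Wdr36 thus lay close together. Utp6 had the smallest difference, from 9.61, 9.84 and 9.71 to 10.27, 10.34 and 10.62 (0.69 ± 0.12). Pwp2, the scaffold of UTP-B, differed by 0.98 ± 0.22, and did not pass without vehicle array 1 or 2 or tamoxifen array 2 (0.74 to 1.19 over the analyses without 1 array).

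The MPP10 complex, which holds U3 and the precursor in place, showed smaller rises (4 of 4, median 0.80). Mphosph10 read 8.15, 8.63 and 8.35 and then 9.21, 9.44 and 9.77 (1.10 ± 0.18). Its partner Imp3, which helps U3 pair with the precursor, read 9.34, 9.46 and 9.47 and then 10.03, 10.36 and 10.62 (0.91 ± 0.15). Imp4 was the smallest of the group, with vehicle values close together (10.01, 9.97 and 10.00) and tamoxifen values of 10.35, 10.59 and 10.82. Its difference of 0.59 ± 0.13 did not pass without vehicle array 2 or tamoxifen array 2 (0.48 to 0.71 without 1 array). Utp3, also of this particle, rose by 0.69 ± 0.13.

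Of the remaining early small-subunit factors 6 of 10 were higher and 4 did not pass the threshold (median 0.65). Rrp9, the protein specific to the U3 particle, went from 8.10, 8.17 and 8.15 to 9.48, 9.94 and 10.39 (1.80 ± 0.22). Nat10, which acetylates cytidines of 18S ribosomal RNA, went from 7.94, 7.60 and 7.58 to 8.77, 8.76 and 9.14 (1.18 ± 0.15). Both had groups that lay far apart, with the tamoxifen array of experiment 3 the highest. Dcaf13, the WD-repeat protein known in yeast as Sof1, read 10.43, 10.27 and 10.12 in vehicle and 10.16, 10.26 and 10.28 after tamoxifen. Its difference of -0.04 ± 0.10 was within the spread of the arrays, and turned to 0.038 without vehicle array 1. Utp20, a very large scaffold protein, read 10.20, 9.37 and 9.69 in vehicle and 9.16, 8.83 and 9.71 after tamoxifen (-0.52 ± 0.28). Its groups overlapped, with the vehicle array of experiment 1 the highest, and it did not pass. Noc4l (0.85 ± 0.19), Utp14a (0.80 ± 0.15), Nop9 (0.75 ± 0.15) and Utp11 (0.54 ± 0.09) rose. Noc4l did not pass once vehicle array 2, vehicle array 3 or tamoxifen array 2 was removed (0.64 to 1.00 without 1 array). Nop14 (0.53 ± 0.17) and the helicase gene Ddx10 (0.54 ± 0.17) did not pass, although their groups did not overlap. Ddx10 did pass with the experiment as a block.

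Late small-subunit factors accompany the particle to the cytoplasm, and 4 of 5 were higher (median 1.54). Rrp12, known for export of the particle, read 7.91, 7.24 and 7.16 in vehicle and 9.06, 9.16 and 9.71 after tamoxifen (1.88 ± 0.25, and 1.21 and 1.41 by its other probe sets). Tsr1, a protein related to GTPases that occupies the immature subunit, went from 9.38, 9.21 and 9.26 to 10.90, 10.88 and 11.22 (1.71 ± 0.12). Bysl, which joins in the nucleolus, differed by 1.54 ± 0.19. These 3 rises were all above 1.5 log2 units. By contrast, Nob1, the endonuclease that makes the 3' end of 18S ribosomal RNA, differed by 0.55 ± 0.15 and kept its call only without tamoxifen array 1 when arrays were left out in turn (0.42 to 0.66). Ltv1, an export adaptor, went from 9.92, 9.98 and 9.73 to 10.08, 10.28 and 10.33 (0.35 ± 0.11) and did not pass.

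**Figure D3:**
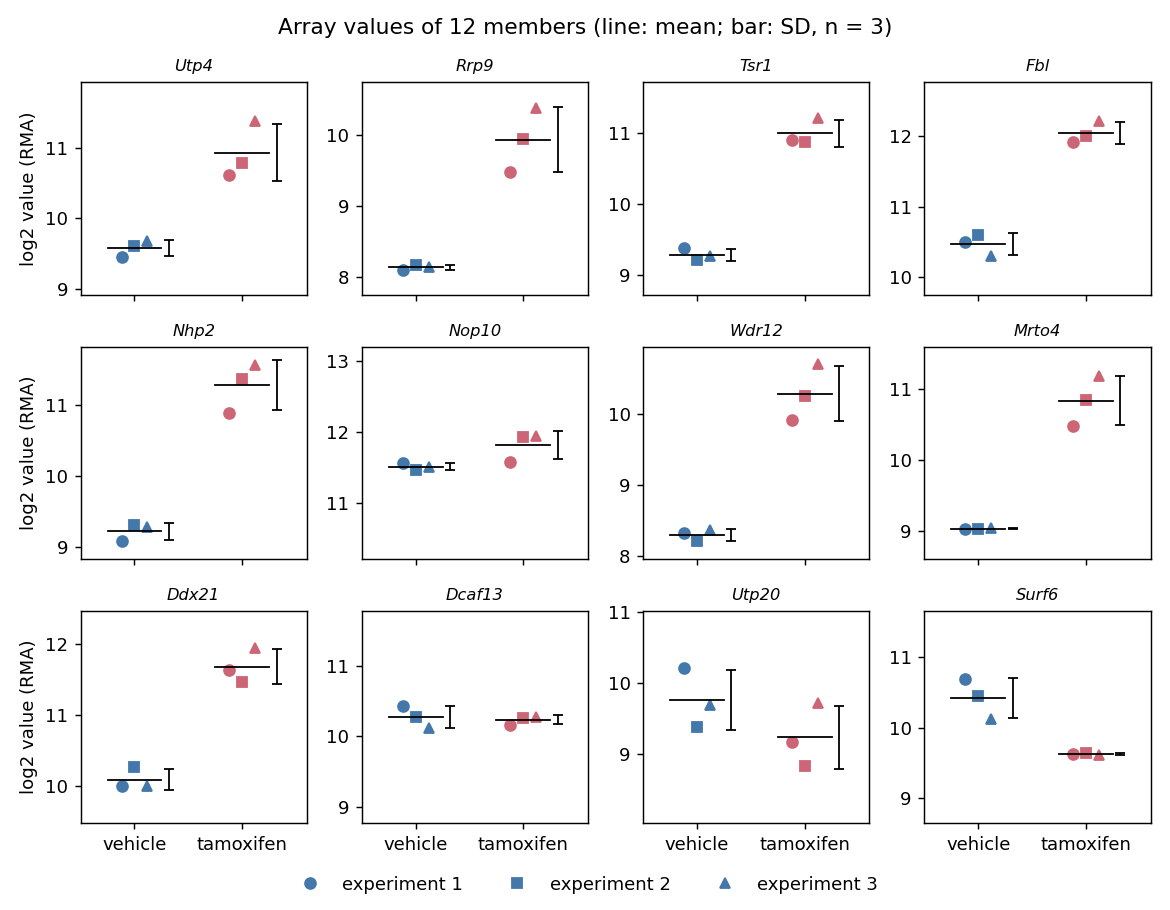
Log2 values of 12 members on each array, by group and with 1 symbol per experiment; lines are means, bars SD (n = 3), and each panel spans the same range of log2 units. Nhp2, Wdr12 and Mrto4 show wide gaps between the groups, Dcaf13 and Utp20 overlap, and Surf6 is lower after tamoxifen, with values of 9.63, 9.64 and 9.62.

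The core proteins of the box C/D particle moved by nearly the same amount. Fbl, the methyltransferase fibrillarin, read 10.50, 10.60 and 10.30 in vehicle and 11.91, 11.99 and 12.21 after tamoxifen (1.57 ± 0.12). Nop56 went from 10.37, 10.26 and 10.23 to 11.70, 11.93 and 12.19 (1.65 ± 0.14), and its paralog Nop58 from 10.43, 10.49 and 10.32 to 11.92, 11.97 and 12.33 (1.66 ± 0.13). These 3 differences were closer to each other than the SE of any of them. The other probe set of Nop56 gave 1.83.

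The core of the box H/ACA particle was uneven in contrast: all 4 proteins are needed in each particle, but 2 of 4 transcripts were called. Nhp2, probe set 1371539_at, had the largest difference of all members and went from 9.08, 9.30 and 9.27 to 10.89, 11.37 and 11.57 (2.06 ± 0.18). Gar1 went from 8.69, 8.68 and 8.74 to 10.41, 10.52 and 11.00 (1.94 ± 0.16). Every tamoxifen value of these genes was at least 1.5 log2 units above every vehicle value. Dkc1, the pseudouridine synthase dyskerin, read 9.87, 9.25 and 9.40 in vehicle and 9.99, 10.06 and 10.47 after tamoxifen (0.67 ± 0.20). Its highest vehicle value, that of array 1, came close to its lowest tamoxifen value, and it passed without that array (0.52 to 0.85 without 1 array). Dkc1 also passed with quantile normalization, a filter on dim probe sets, a trended robust eBayes and the mean of all probe sets of each gene. Nop10, a very small protein, read 11.56, 11.47 and 11.50 in vehicle and 11.59, 11.93 and 11.95 after tamoxifen (0.31 ± 0.12). Its tamoxifen value in experiment 1 was just above the vehicle values, and it passed without that array (0.24 to 0.42 without 1 array). The difference between these members was not tested, since both rest on the values used to propose the list.

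The PeBoW complex, needed for the 28S and 5.8S ribosomal RNAs, was higher in its 3 members. Wdr12 went from 8.33, 8.21 and 8.37 to 9.92, 10.25 and 10.71 (1.99 ± 0.19), a 3.98-fold rise. Bop1 went from 8.36, 8.08 and 8.02 to 9.34, 9.44 and 9.93 (1.42 ± 0.18). The third, Pes1, read 9.49, 9.44 and 9.64 and then 10.03, 10.18 and 10.59 (0.74 ± 0.16), and lost its call without vehicle array 2 (0.58 to 0.86 without 1 array). The groups did not overlap in any of the 3 genes, while the changes ranged from 1.67-fold to 3.98-fold within 1 complex.

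Of 17 other large-subunit factors 16 were higher and 1 lower (median 1.07). Mrto4, which prepares the place of the ribosomal stalk, read 9.03, 9.02 and 9.04 in vehicle and 10.48, 10.85 and 11.18 after tamoxifen (1.81 ± 0.17, and 1.52 by its other probe set). Rrs1, which helps bring in the 5S ribonucleoprotein, went from 9.05, 8.85 and 9.10 to 10.56, 10.65 and 11.14 (1.79 ± 0.17). The vehicle values of Mrto4 lay closer together than its tamoxifen values, and in both genes the tamoxifen array of experiment 3 was the highest. Next came Nop16 (1.74 ± 0.15), the nucleostemin gene Gnl3 (1.60 ± 0.13), Ebna1bp2 (1.41 ± 0.14), Rrp15 (1.39 ± 0.16), Nip7 (1.36 ± 0.13) and Nop2, a methyltransferase of 28S ribosomal RNA (1.24 ± 0.18). Noc2l, the helicase gene Ddx18, Brix1, the methyltransferase gene Ftsj3 and Rrp1b lay between 0.88 and 1.07. Other probe sets gave 0.51 for Brix1, 1.37 for Ddx18, and 0.97 and 1.08 for Rrp1b. Lowest among the rises were Grwd1 (0.66 ± 0.14), the GTPase gene Gnl2 (0.61 ± 0.16) and Noc3l (0.40 ± 0.10). Noc3l read 4.26, 4.31 and 4.23 in vehicle and 4.65, 4.52 and 4.84 after tamoxifen, a low level at which RMA compresses differences, and its call was lost with the experiment as a block. It was also lost without any 1 array other than tamoxifen array 2 (0.32 to 0.48). Grwd1 did not pass without vehicle array 2 or 3 or tamoxifen array 2 (0.53 to 0.77), nor Gnl2 without any vehicle array or tamoxifen array 2 (0.44 to 0.73). The other, dim probe set of Gnl2 gave 0.05 with overlapping groups, and the call of Gnl2 was lost with the mean of its probe sets.

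Surf6, a nucleolar matrix protein that binds nucleic acids, went against the others. Its only probe set, 1390290_at, read 10.68, 10.45 and 10.13 in vehicle and 9.63, 9.64 and 9.62 after tamoxifen, so all tamoxifen values were lower (-0.79 ± 0.14). The tamoxifen values lay close together, whereas the vehicle values spread more widely. It was called lower in each of the 6 analyses without 1 array (-0.94 to -0.66). The smallest of these differences was that without vehicle array 1, which held the highest value.

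The structural and multifunctional proteins of the nucleolus were higher in all 4 measured genes (median 0.94). Ddx21, a helicase that acts in ribosomal RNA transcription and processing, went from 10.00, 10.27 and 10.01 to 11.64, 11.47 and 11.95 (1.60 ± 0.15, and 2.05 by its other probe set). Nolc1, a chaperone of small nucleolar ribonucleoproteins, read 9.59, 9.45 and 9.37 and then 10.36, 10.38 and 10.91 (1.08 ± 0.17). Its other probe sets gave 1.65, 1.82 and 0.17, so the size depended on the probe set, and the last did not pass. Ncl, the abundant RNA-binding protein nucleolin, differed by 0.81 ± 0.12. Tcof1, the treacle protein that links RNA polymerase I to processing, went from 7.77, 7.66 and 7.69 to 8.06, 8.17 and 8.66 (0.59 ± 0.16). Its other probe sets (0.37 and 0.63) did not pass, and the call was lost without any vehicle array or tamoxifen array 2 (0.41 to 0.71), with median centring, with a trended robust eBayes and with the mean of its probe sets.

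Of 17 members with several probe sets, 14 had all of them higher and 3 (Gnl2, Nolc1 and Tcof1) had some that did not pass. Over all 83 probe sets 71 were higher and 1 lower, where 11.5% of all probe sets were higher. The 24 dimmer probe sets of members differed from the brightest ones on vehicle array 1. In 7 of them vehicle array 1 was more than 0.5 log2 units below the mean of the other vehicle arrays, which happened in 0 of 59 brightest probe sets. It was above that mean by 0.71, 0.67 and 0.55 in the brightest ones of Rrp12, Utp20 and Dkc1. The brightest were chosen on a mean that includes this array. The share over all probe sets was not counted, and the part of RNA quality was not tested. In the 24 dimmer probe sets the median difference was 1.12 with all arrays and 1.00 without vehicle array 1. For a dimmer probe set of Utp6 the difference was 1.16 with that array and 0.76 without it, and for that of Wdr75 1.22 and 0.85. The brightest probe sets had a median of 1.02 with it and 1.03 without it.

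The experiments differed in size but not in direction. The median difference over the members, tamoxifen minus vehicle, was 0.77 in experiment 1, 0.93 in experiment 2 and 1.41 in experiment 3, with 56, 56 and 58 of 59 members above 0. The median over all genes was -0.03, 0.01 and 0.02. The tamoxifen array of experiment 3 was the highest of its group for 57 members (96.6%), against 64.7% of all genes called higher and 36.5% of all genes. Without it the median of members was 0.86, and 48 were called higher, against 10.2% of all genes. The mean level of the S phase and mitosis genes was also highest on that array, at 9.71, as given above, and its part in the larger changes was not tested.

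**Figure D4:**
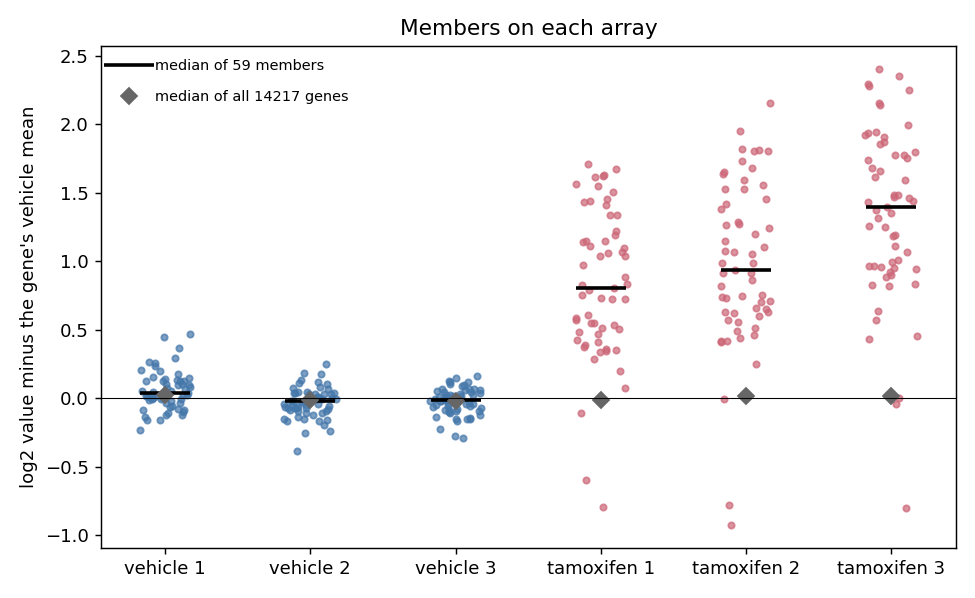
Each point is the log2 value of 1 member on 1 array minus its mean over the vehicle arrays; black lines are medians of the 59 members and grey diamonds medians of all 14217 genes. Member medians are 0.80, 0.94 and 1.39 on the tamoxifen arrays of experiments 1, 2 and 3, while the medians of all genes stay within 0.03 of 0.

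Other genes of the same process, named by function and outside the list, were also mostly higher. Of 141 listed, 126 were measured, with a median of 0.62 against 0.01 for all genes. Of these 126, 77 were higher (61.1%, against 13.9% of all genes) and 5 lower (3.97%, against 17.3%). The groups did not overlap, with tamoxifen higher, for 91 of the 126 (72.2%, against 23.7% of all genes). These lists were drawn up with results of these arrays known, so the counts are a description. Genes of these lists given with a p-value were picked for the size of their change, so those p-values are a description too.

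**Figure D5:**
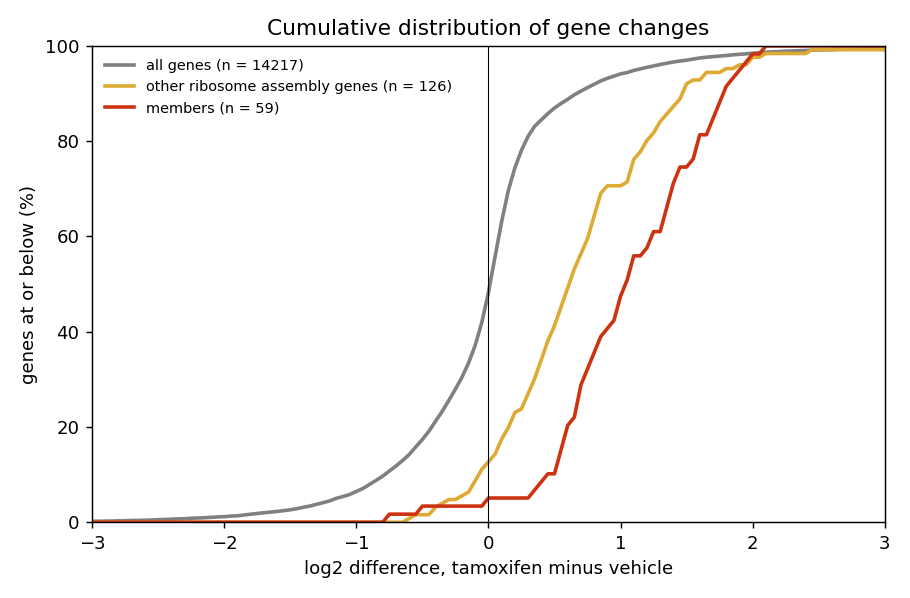
Lines give the percentage of genes at or below each log2 difference, tamoxifen minus vehicle, for all genes (14217), other ribosome assembly genes (126) and members (59). The lines cross their middle at 0.01, 0.62 and 1.02, so both ribosome assembly sets lie to the right of all genes.

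Among other small-subunit factors 17 of 28 were higher and 0 lower in limma (1, Ngdn, was lower at an unadjusted p under 0.05). Wdr46, a nucleolar scaffold, rose by 1.48 ± 0.15 (adjusted p = 0.00129, limma), Aatf by 1.47 ± 0.19 and Rcl1 by 1.43 ± 0.18. Nol6 (0.27 ± 0.16) and Bms1, a GTPase of the processome (0.16 ± 0.16), did not pass. Of 43 other large-subunit factors 27 were higher and 3 lower. Tma16 rose by 2.42 ± 0.21 (adjusted p = 0.000757, limma), from 8.21, 8.07 and 8.08 to 10.17, 10.45 and 11.01. The giant ATPase gene Mdn1, which strips factors from the particle, rose by 1.98 ± 0.27 (with 0.06 by a dim probe set) and Pak1ip1 by 1.98 ± 0.19. Of the 3 lower ones, Sbds, the protein of the Shwachman-Diamond syndrome, fell by 0.44 ± 0.09 (-0.02 by its other probe set, and not past with the mean of both), Nop53 fell by 0.44 ± 0.10 and Las1l fell by 0.36 ± 0.10. The call of Las1l was lost with the experiment as a block and in 5 of 6 analyses without 1 array, and Nop53 did not pass once vehicle array 3, tamoxifen array 1 or tamoxifen array 2 was removed.

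Assembly factors of small nucleolar ribonucleoproteins, listed together with other proteins of ribosomal RNA modification, split. In this list 11 of 17 were higher, with a median of 1.05, and 0 lower in limma (0 at an unadjusted p under 0.05). The ribosomal RNA methyltransferase gene Dimt1 rose by 1.86 ± 0.22 (2.16 by its other probe set), Nopchap1 by 1.64 ± 0.15 and Shq1, a chaperone of dyskerin, by 1.63 ± 0.31. The helicase genes Ruvbl1 and Ruvbl2, which work as 1 complex, rose by 1.05 ± 0.20 and 1.05 ± 0.20. Trmt112 (-0.05 ± 0.08), the partner of several methyltransferases, and Mettl5 (-0.24 ± 0.14) did not pass. Among nucleases 12 of 22 were higher and 1, Rpp40, was lower (-0.57 ± 0.11). For Pop1, of RNase MRP, the rise was 1.49 ± 0.27, with 0.10 in a dim second probe set, and 6 of 9 measured exosome subunits rose by between 0.63 and 0.85. The call of Exosc1 was lost without tamoxifen array 2, and that of Exosc2 without vehicle array 2 or tamoxifen array 2. Exosc4, Exosc5 and Exosc8 passed only without tamoxifen array 1 when arrays were left out in turn, and Exosc7 only without vehicle array 1 or 3.

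Of 14 measured genes of the RNA polymerase I machinery 9 were higher and 1 lower. Polr1e rose by 2.07 ± 0.27 (adjusted p = 0.00277, limma), Polr1b, a core subunit, by 1.27 ± 0.23 and Polr1g by 1.27 ± 0.16. The initiation factor genes Ubtf (-0.16 ± 0.13), Taf1b (-0.02 ± 0.10) and Rrn3 (0.37 ± 0.12) did not pass, and nor did Taf1c. Taf1d, also an initiation factor gene, was called higher. Rrn3 passed with quantile normalization and with the mean of its probe sets. The other probe sets of Ubtf (0.16, -0.31 and 0.34) did not pass either, whereas a dimmer probe set of Rrn3 did (0.42). Ttf1, which terminates transcription of the ribosomal genes, was lower (-0.60 ± 0.08). Of 2 measured host genes of small nucleolar RNAs, Snhg4 went from 5.19, 5.27 and 5.87 to 9.71, 10.57 and 10.43 (4.79 ± 0.27), whereas Gas5 differed by 0.16 ± 0.14 and did not pass.

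Myc went from 7.96, 8.07 and 8.19 in vehicle to 11.07, 11.30 and 11.77 after tamoxifen (3.31 ± 0.18, adjusted p = 0.000185, limma), and its partner Max differed by 0.05 ± 0.10 and did not pass (0.58 by its other probe set, also not past). On the tamoxifen arrays Myc was highest in experiment 3, as were 64.7% of all genes called higher. Dusp6, a phosphatase gene that ERK signalling induces, rose by 4.53 ± 0.08, with tamoxifen values of 13.42, 13.30 and 13.39. A link of either gene to the changes of the members was not tested.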

How the data were processed

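RNA of 6 cultures was hybridised to rat expression arrays. The authors deposited 1 log2 value for each probe set and array. Per the submitters' processing notes these come from RMA (background correction, normalization between arrays, summary of probes), with no version in the sources used here. The number of arrays limits the precision. Of 31099 probe sets 57 controls were left out, and 20826 were listed with 1 gene symbol. Groups and experiment numbers came from the sample titles. Tamoxifen was compared with vehicle on all 6 arrays in a two-sided limma test (version 3.58.1, R 4.3.3; lmFit, then eBayes) with no covariate, and Benjamini-Hochberg adjustment covered 31042 probe sets, and the code was tested on simulated data. The members and lists were chosen with earlier results of these data known. An exact permutation test of 3 against 3 cannot give a p below 0.1 and was not used. Deviations from group means correlated at 0.26, 0.20 and 0.28 between arrays of the same experiment number, so the numbers were taken as pairs, and a blocked fit by experiment number was among the alternatives. Per role the 2 largest and the smallest changes, all members called lower, and up to 3 called genes of each other list were named. Motifs were searched on both strands of 1 RefSeq promoter window per gene. Protein sequences were not used here.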

Additional observations from a re-analysis of the deposited data

How the results depend on the processing

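With the experiment as a replicate block 51 members were higher, 50 of them also called without it; the median of 1.02 is the same by construction, and Noc3l and Ddx10 were the only members whose call changed. Median centring, quantile normalization, the filter on dim probe sets (mean log2 value of at least 6), eBayes with trend and robust, averaging all probe sets of each gene and leaving out suffixed probe sets gave 49 to 55 members higher. The filter left 57 members measured, of which 50 were higher. The block called 13.9% of all genes higher, and these other settings called 12.7% to 18.9% of the genes they kept. Leaving out 1 array gave 41 to 51 members higher, 1 lower throughout, a median of 0.86 to 1.18 and 5095 to 7195 probe sets called. Of all genes it called 9.65% to 13.5% higher. For the other ribosome assembly genes it gave 62 to 78 higher and 3 to 5 lower. A test against a fold of 1.5 (limma's treat) asks for more than a difference from 0. It called 1448 probe sets in place of 7578, 22 members higher in place of 51, and 20 other ribosome assembly genes higher in place of 77. Of all genes it called 3.46% higher, in place of 13.9%. It called 0 members and 0 other ribosome assembly genes lower (0 and 0 at an unadjusted p under 0.05). Over the analyses without 1 array the difference of Dcaf13 ran from -0.11 to 0.038 (without vehicle array 1). That of Max ran from -0.0032 (without vehicle array 3) to 0.12 over these analyses. Neither gene passed in any setting, and the cause was not tested. Among the values of named genes under alternatives, 769 kept direction and call, 47 lost the call and 2 gained it. Genes near background may have understated folds.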
